A study of Mus musculus with 2 samples.

Results

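The genes of MHC class II antigen presentation were followed in 1 RNA-seq library from pre-pro-B cells and 1 from pro-B cells, both from C57BL/6 mice. The set was given as 9 named genes and was matched by symbol to the protein-coding RefSeq transcripts of the expression table. All 9 were found, with 12 transcripts, among 20246 named genes and 26968 protein-coding transcripts. The pre-pro-B cells were *Ebf1* -/-, came from female embryonic liver and were cultured with Il-7 at 5 ng/mL, Scf at 10 ng/mL and Flt3l at 10 ng/mL. The pro-B cells were *Rag2* -/-, came from male adult bone marrow and were cultured with Il-7 at 5 ng/mL and no other cytokine. Both were grown on OP-9 cells, a mouse bone marrow stromal line, from which the B lineage cells were washed off before RNA extraction. Ebf1 is a transcription factor needed for B cell specification, and cells without it stop as progenitors before the pro-B stage. Rag2 is a subunit of the recombinase that cuts the antigen receptor loci, and cells without it stop as pro-B cells. With 1 library per cell type there was no replicate check and no test, and cell type cannot be told apart from genotype, sex, age, tissue of origin and cytokines. Abundance was given as FPKM, mapped fragments scaled to transcript length and to library size, so that levels can be compared between genes. The range in brackets after an FPKM is the 95% interval of Cuffdiff, the program that made the values. It is a range modelled from 1 library per cell type and does not measure the spread between cultures. The range is not counting error alone. *H2-Ob*, with 1 transcript and roughly 24547 reads in the pre-pro-B library, had an FPKM range of 23.6 to 181 there.

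MHC class II molecules display peptides from the endosomal pathway to CD4+ T cells. An alpha and a beta chain pair in the endoplasmic reticulum with the invariant chain, Cd74, which fills the peptide groove and directs the complex to endosomes. Proteases trim Cd74 there to a short fragment, the DM heterodimer exchanges this fragment for an antigenic peptide, and the DO heterodimer restrains DM. The promoters of these genes carry an X box and a Y box. Rfx factors and Creb1 bind the X box, the NF-Y trimer binds the Y box, and the coactivator Ciita, which does not bind DNA itself, docks on the assembled complex and sets the level of transcription. Mature B cells, dendritic cells and macrophages are the classical class II positive cells. In the mouse, B lineage cells gain surface class II during their development in the bone marrow.

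The promoters are shown first because the X and Y boxes are what the member genes are known to share. RefSeq promoter windows on GRCm38.p6, a later assembly than the mm9 of the expression table, were matched for 6 of the 9 genes, *H2-Aa*, *H2-Eb1*, *H2-DMa*, *H2-DMb1*, *H2-Oa* and *H2-Ob*. The Y box core ATTGG was present on either strand within 250 bases upstream of the start in all 6, and in 33.8% of all 32851 windows. Members were counted by gene, a match in either of the 2 windows of *H2-DMa* being enough, whereas the shares were counted by window. The X1 core AGNNACNG was present on either strand in 4 of the 6, and in 43.6% of all windows, so these letters alone did not set the members apart. A second search, written after the sequences had been seen, asked for GNAAC followed by ATTGG on the transcribed strand with 20 to 40 bases between their first bases. GNAAC can lie inside AGNNACNG, so the 2 searches are not independent. This spaced pair was found in 5 of the 6 members, and in 490 of the 32851 windows, or 1.49%. *H2-DMa* had 2 windows, and neither held the pair. The 5 stretches below run from 140 to 31 bases before the start and are written 5′ to 3′ on the strand of the gene, with GNAAC and ATTGG in capitals.
H2-Oa (chr17:34092239-34092348, plus strand): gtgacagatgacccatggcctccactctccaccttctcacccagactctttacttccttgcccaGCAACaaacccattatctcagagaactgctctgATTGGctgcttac
H2-DMb1 (chr17:34153051-34153160, plus strand): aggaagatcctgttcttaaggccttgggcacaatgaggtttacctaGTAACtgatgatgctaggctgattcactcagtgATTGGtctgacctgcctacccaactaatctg
H2-Ob (chr17:34238765-34238874, plus strand): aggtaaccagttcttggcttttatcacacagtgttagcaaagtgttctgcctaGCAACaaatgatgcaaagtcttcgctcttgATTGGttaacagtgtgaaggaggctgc
H2-Aa (chr17:34287854-34287963, minus strand): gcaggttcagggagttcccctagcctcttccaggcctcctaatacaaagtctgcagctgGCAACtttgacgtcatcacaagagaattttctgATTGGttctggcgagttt
H2-Eb1 (chr17:34305727-34305836, plus strand): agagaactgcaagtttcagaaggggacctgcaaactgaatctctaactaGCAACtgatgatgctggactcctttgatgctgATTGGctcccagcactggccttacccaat

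The distance between the first bases of the pair was 33 bases in *H2-Oa*, *H2-DMb1* and *H2-Aa*, 32 in *H2-Eb1* and 30 in *H2-Ob*. The ATTGG began 43 bases before the start in *H2-Oa*, 48 in *H2-Aa*, 57 in *H2-Ob*, 59 in *H2-Eb1* and 61 in *H2-DMb1*. The genes that shared the spaced pair did not share a level: in the pro-B library they ranged from *H2-Aa* and *H2-Eb1*, both listed at 0, to *H2-Ob* at 14.9 FPKM. A match of letters is a description of these windows and was not tested for binding.

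The 9 genes all had an FPKM above 0 in the pre-pro-B library, and most of them were low or listed at 0 in the pro-B library. The pre-pro-B intervals of *H2-Ab1*, *H2-DMb1* and *Ciita* reached 0. In the pre-pro-B library 8 of the 9 reached an FPKM of 1, and *Ciita* did not. In the pro-B library only *H2-Ob*, *H2-Ab1* and *H2-Oa* did. The FPKM was lower in the pro-B library for 8 of the 9, the exception being *H2-Ab1*. Fold differences were set on log2(FPKM + 1), a scale that understates the difference of low genes, and a gene was counted when it reached an FPKM of at least 1 in at least 1 library. Of the 8 members that met this minimum, 6 were lower in the pro-B library by at least 2-fold, 0 were higher and 2 lay within 2-fold. Over all 10525 genes that met it, 19.1% were lower and 12.2% were higher by the same rule. The median log2 ratio, pro-B over pre-pro-B, was -2.55 for the 8 members and -2.41 for all 9, against -0.14 for all genes. *H2-Aa*, *H2-Eb1*, *H2-DMa*, *H2-DMb1* and *Cd74* met the minimum through the pre-pro-B library alone, so their direction was set by that rule. With an FPKM of at least 1 required in both libraries, 3 members remained, of which 2 were lower, beside 11.3% of all genes.

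**Figure D1:**
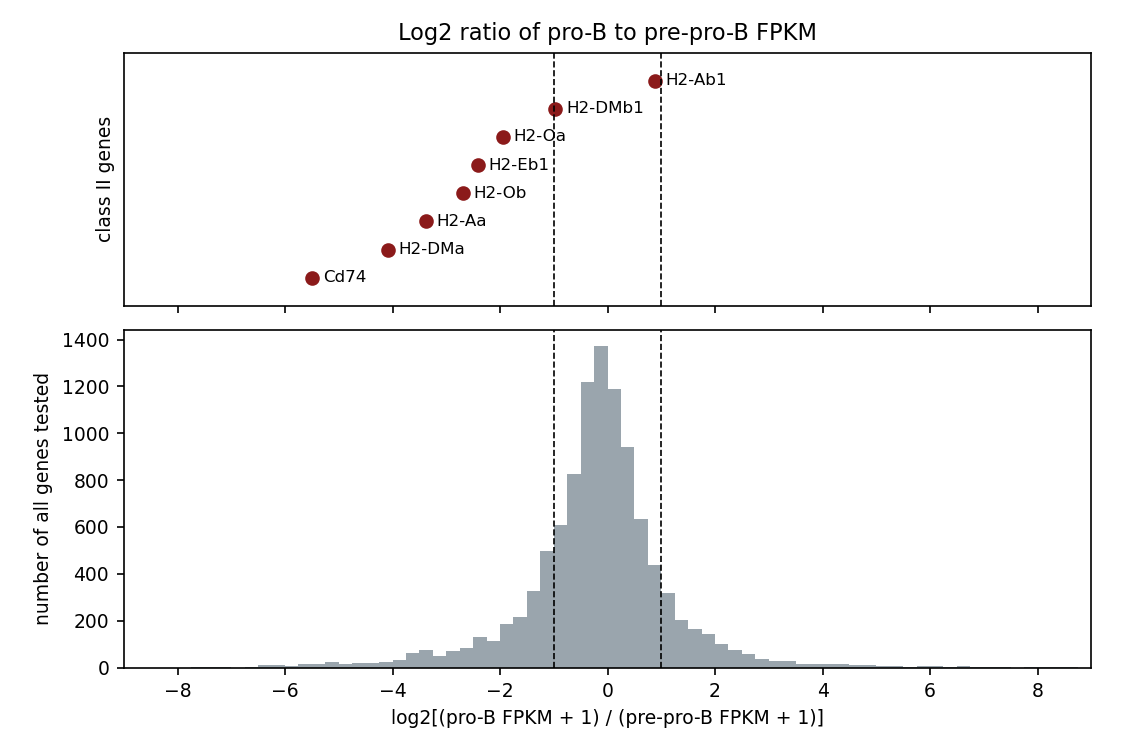
The lower panel counts all 10525 genes with FPKM of 1 or more in either library by their log2 ratio of FPKM, pro-B over pre-pro-B (pseudocount 1), and the upper panel places the 8 class II genes that met the same minimum on that axis, 1 point per gene from 1 library per cell type. Dashed lines mark 2-fold. The members run from *Cd74* at -5.50 to *H2-Ab1* at 0.88, and 6 of them lie left of the lower line.

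The classical chains bind the peptide that is shown to the T cell. The 3 members that encode them did not share 1 pattern. *H2-Aa* (NM_010378, mm9 chr17:34419696-34424716, minus strand), the alpha chain of I-A, had an FPKM of 9.42 [0.0370 to 19.4] in the pre-pro-B library and was listed at 0 in the pro-B library. *H2-Ab1* (NM_207105, chr17:34400172-34406363, plus strand), the beta chain that pairs with it, had 4.30 [0 to 14.0] in the pre-pro-B library and 8.74 [0.132 to 25.3] in the pro-B library. The 2 chains of I-A thus lay in opposite order in the libraries. The level of *H2-Aa* was 2.19 times that of *H2-Ab1* in the pre-pro-B library, with overlapping intervals, whereas in the pro-B library the interval of *H2-Ab1* lay above the value of 0 listed for *H2-Aa*. The *H2-Ab1* intervals of the 2 libraries overlapped, and its log2 ratio of 0.88 was inside 2-fold. Without a pseudocount its ratio was 2.03-fold, just past it.

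*H2-Eb1* (NM_010382, chr17:34442812-34453619, plus strand), the beta chain of I-E, had the pattern of *H2-Aa* and not that of *H2-Ab1*. It had an FPKM of 4.31 [0.0237 to 14.4] in the pre-pro-B library and was listed at 0 in the pro-B library. The alpha chain gene of I-E, *H2-Ea-ps*, a pseudogene in C57BL/6 mice, was not matched among the transcripts used here. Of the 10029 genes with an FPKM of at least 1 in the pre-pro-B library, 203 were listed at 0 in the pro-B library, or 2.02%. *H2-Aa* and *H2-Eb1* were 2 of these. Cuffdiff gave both an interval from 0 to 0 and marked both estimates as OK, so no fold is given against these zeros. The table does not show whether they are true zeros or failed estimates, and this holds for *H2-DMb2* too. They were counted as lower through log2(FPKM + 1), where their ratios of -3.38 and -2.41 depend on the pseudocount and are no bound. The lower limits of both genes in the pre-pro-B library were under 0.1 FPKM, so the gap between their intervals was narrow.

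*H2-DMa* and *H2-DMb1* encode the chains of DM, the peptide exchange factor. *H2-DMa* (NM_010386, chr17:34259777-34276046, plus strand) had an FPKM of 19.7 [1.76 to 37.8] in the pre-pro-B library and 0.224 [0 to 0.691] in the pro-B library. These intervals did not overlap. The log2 ratio was -4.08, and the ratio of the FPKM themselves was 88.0-fold. The pro-B interval reached 0, so the size of this fold is uncertain. *H2-DMb1* (NM_010387, chr17:34290136-34297174, plus strand) was low in both libraries, with 1.45 [0 to 4.99] in the pre-pro-B library and 0.250 [0 to 1.02] in the pro-B library. Its log2(FPKM + 1) ratio of -0.97 stopped just short of 2-fold, and the intervals overlapped. The ratio of the FPKM themselves was 5.81-fold, with both intervals reaching 0. *H2-DMb2*, a close copy of *H2-DMb1* in the next locus, had 9.22 [0.0503 to 26.9] in the pre-pro-B library and was listed at 0 in the pro-B library. Reads from the 2 beta chain genes can be shared between them, so their split is uncertain. In the pre-pro-B library *H2-DMa* was 13.6 times *H2-DMb1* but 1.85 times the sum of the 2 beta chain genes.

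*H2-Oa* and *H2-Ob* encode the chains of DO, the inhibitor of DM, and were, with *H2-Ab1*, the members that reached an FPKM of 1 in the pro-B library. *H2-Ob* (NM_010389, chr17:34375850-34382853, plus strand) had the highest FPKM of the 9 genes in both libraries, 102 [23.6 to 181] in the pre-pro-B library and 14.9 [1.98 to 27.9] in the pro-B library. It was 6.84-fold lower in the pro-B library, with a log2 ratio of -2.69, and the intervals overlapped only between 23.6 and 27.9. It ranked 479 of 20246 genes by FPKM in the pre-pro-B library and 4533 in the pro-B library. *H2-Oa* (NM_008206, chr17:34220788-34232254, plus strand) had 18.5 [0.264 to 42.8] in the pre-pro-B library and 4.04 [0 to 10.9] in the pro-B library. It was 4.58-fold lower in the pro-B library, at a log2 ratio of -1.95, and the intervals of the 2 libraries overlapped. A noncoding transcript of the table shares its locus. *H2-Ob* was 5.53 times *H2-Oa* in the pre-pro-B library and 3.70 times in the pro-B library. *H2-Ob* was 5.18 times *H2-DMa* in the pre-pro-B library and 66.6 times in the pro-B library, where the interval of *H2-DMa* reached 0. Over *H2-DMb1*, the DM chain whose level is uncertain, it was 70.3 times and 59.7 times.

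*Cd74*, the invariant chain, lies outside the class II region on chromosome 18 (60963503 to 60972306, plus strand) and had the lowest log2(FPKM + 1) ratio of the members. Its summed FPKM was 50.2 in the pre-pro-B library and 0.133 in the pro-B library, which is 379-fold lower with a log2 ratio of -5.50. The intervals of its transcripts reached 0 in the pro-B library, so the size of this fold is uncertain. Of all genes that met the minimum, 0.504% had a lower log2 ratio. The shorter transcript NM_010545 had an FPKM of 43.9 [1.49 to 87.9] in the pre-pro-B library and 0.133 [0 to 0.432] in the pro-B library, and these intervals did not overlap. The longer transcript NM_001042605, whose extra exon encodes a protease inhibitor domain, had 6.33 [0 to 23.9] in the pre-pro-B library and 7.47e-06 [0 to 0.0343] in the pro-B library. The long form made up 12.6% of *Cd74* FPKM in the pre-pro-B library. In the pre-pro-B library *Cd74* was 5.33 times *H2-Aa* and 11.7 times *H2-Ab1*, whereas in the pro-B library it was 0.0152 times *H2-Ab1*. The interval of NM_010545 overlapped those of *H2-Aa* and *H2-Ab1* in the pre-pro-B library and that of *H2-Ab1* in the pro-B library. These ratios therefore rest on point values.

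*Ciita* (chr16:10480165-10527657, plus strand), the class II coactivator, was the lowest member in the pre-pro-B library. Its summed FPKM was 0.397 in the pre-pro-B library and 0.104 in the pro-B library, under the minimum of 1 in both, so it was not counted at 2-fold. The main transcript NM_007575 had 0.397 [0 to 1.08] in the pre-pro-B library and 0.0708 [0 to 0.242] in the pro-B library, with overlapping intervals. NM_001243760 was listed at 0 in the pre-pro-B library and had 0.0329 in the pro-B library. NM_001243761 had 5.35e-06 in the pre-pro-B library and was listed at 0 in the pro-B library. With about 90000000 sequenced reads per library, the FPKM of NM_007575 stood for about 188 reads in the pre-pro-B library and 33.5 in the pro-B library. These numbers are rough, and Cuffdiff's intervals did not separate the 2 libraries.

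**Figure D2:**
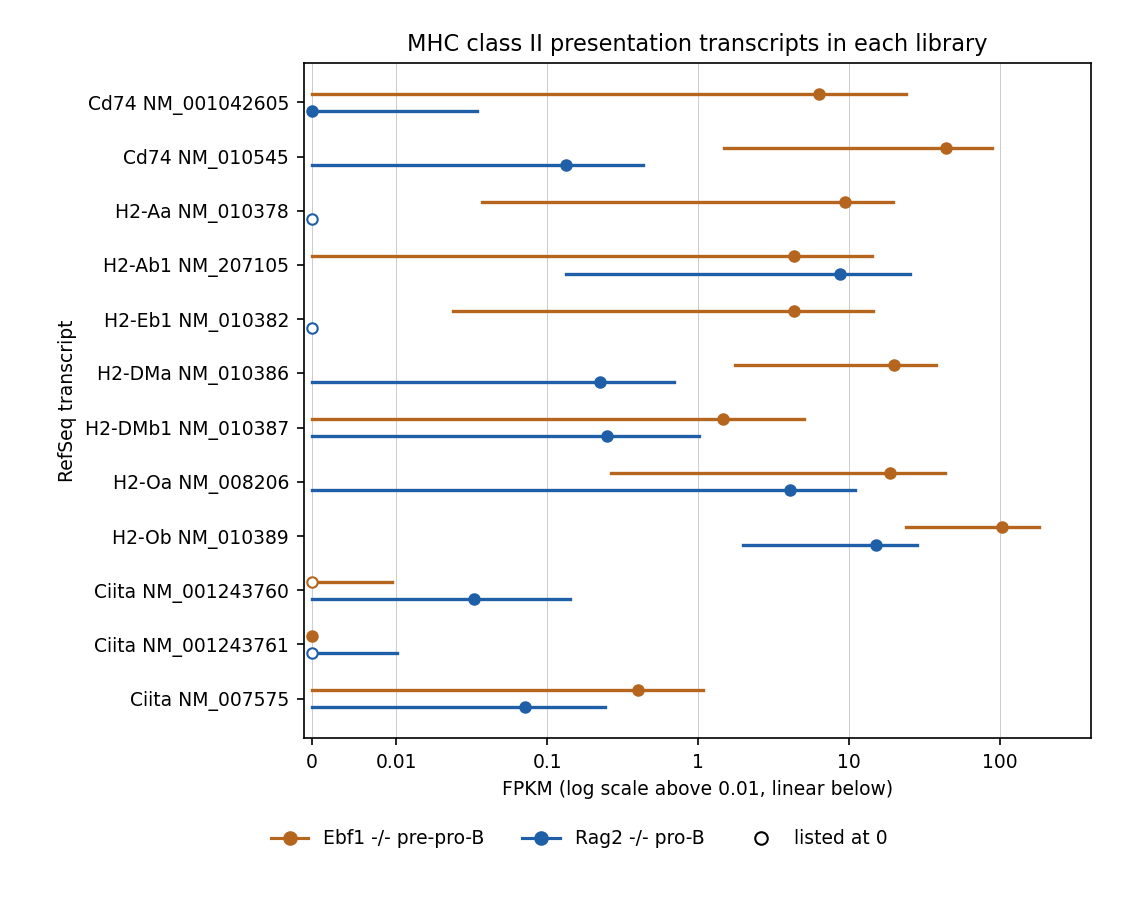
Points give the FPKM of each of the 12 member transcripts in the *Ebf1* -/- pre-pro-B library and the *Rag2* -/- pro-B library. Lines give the 95% Cuffdiff interval of each FPKM. The axis is logarithmic above 0.01 FPKM, and open points mark transcripts listed at 0. The intervals of *H2-DMa* and of *Cd74* NM_010545 lie apart between libraries, those of *H2-Aa* and *H2-Eb1* lie just above the zeros of pro-B cells, and those of the other transcripts overlap or lie near 0.

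Of the 9 member transcripts with FPKM of 1 or more in either library, 4 were lower in the pro-B library with intervals that did not overlap, against 3.01% of all 12875 transcripts that met this minimum. These were *H2-DMa*, the shorter *Cd74* transcript, and *H2-Aa* and *H2-Eb1*, which are here set against listed zeros. All of these met the minimum through the pre-pro-B library alone, so their direction was set by that rule. Among the 7 that were above 0 in both libraries the number was 2, *H2-DMa* and *Cd74*, against 2.57% of 12330. This second count was added after the zeros had been seen.

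By level, the order in the pre-pro-B library was *H2-Ob*, *Cd74*, *H2-DMa*, *H2-Oa*, *H2-Aa*, *H2-Eb1*, *H2-Ab1*, *H2-DMb1* and *Ciita*. In the pro-B library it was *H2-Ob*, *H2-Ab1*, *H2-Oa*, *H2-DMb1*, *H2-DMa*, *Cd74* and *Ciita*, followed by *H2-Aa* and *H2-Eb1* at 0. By the main transcript of each gene, the intervals of all neighbours in both orders overlapped. Apart in the pre-pro-B library were *H2-Ob* above *H2-Aa*, *H2-Eb1*, *H2-Ab1*, *H2-DMb1* and *Ciita*, and *Cd74* and *H2-DMa* above *Ciita*. In the pro-B library *H2-Ob* was apart from *H2-DMb1*, *H2-DMa*, *Cd74*, *Ciita* and the 2 genes at 0, and *H2-Ab1* from the 2 genes at 0. The 9 genes summed to 210.5 FPKM in the pre-pro-B library and 28.4 in the pro-B library. *H2-Ob* made up 48.5% of that sum in the pre-pro-B library and 52.6% in the pro-B library, *Cd74* 23.9% and 0.466%, and *H2-Ab1* 2.04% and 30.7%.

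Of the 9 members, 7 lie in the class II region of chromosome 17, interleaved with genes of other roles. The 10 neighbours taken for comparison showed smaller differences than the members by their median log2 ratio, which was -0.48. Of these, 3 were lower in the pro-B library by 2-fold, 0 were higher and 7 lay within it. Over all genes that met the minimum, 19.1% were lower and 12.2% higher, with a median of -0.14. The count of lower neighbours was 2 with median-ratio scaling and 4 with the most abundant transcript per gene. The lower neighbours were *Tap2*, a subunit of the peptide transporter that serves class I, at 57.0 and 24.7 FPKM in the respective libraries, *Brd2*, a reader of acetylated histones, at 21.0 and 9.90, and *Col11a2*, a collagen chain, at 2.67 and 0.622. *Brd2* was only just past 2-fold, at a log2 ratio of -1.01, and the intervals of *Tap2*, *Brd2* and *Col11a2* overlapped between the libraries. The 3 genes between *H2-DMb1* and *Tap2* were named after their values had been seen. They were *Psmb9*, a subunit of the immunoproteasome, at 53.8 and 59.5 FPKM, *Tap1*, the partner of *Tap2*, at 42.5 and 44.1, and *Psmb8*, a further immunoproteasome subunit, at 162 and 136. These class I processing genes were at similar levels in the 2 libraries, while *Tap2*, next to *Psmb8*, was lower in the pro-B library. On one side, *H2-DMb1*, the nearest class II gene, was within 2-fold on the log2(FPKM + 1) scale, at -0.97. Beyond it, *H2-DMa* and *H2-DMb2* were lower. On the other side, *H2-Ob*, beyond *Tap2*, was lower, with overlapping intervals. Farther along, *H2-Eb2* was at 0.122 and 0.0432 and *Btnl2* was listed at 0 in both.

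**Figure D3:**
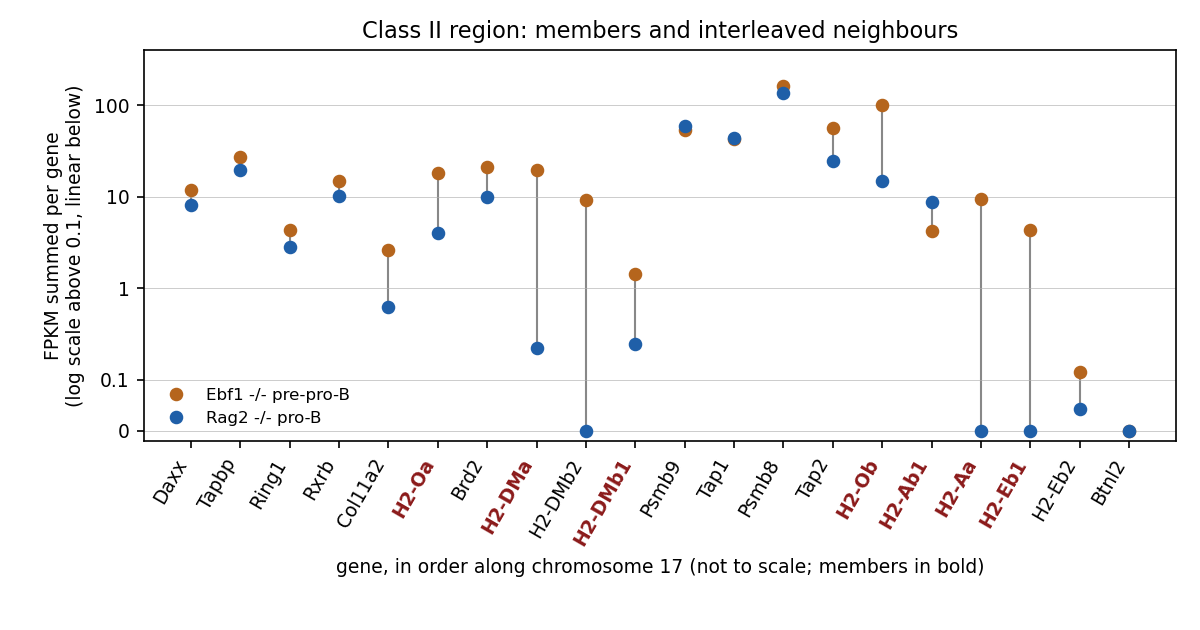
FPKM summed per gene in the *Ebf1* -/- pre-pro-B library and the *Rag2* -/- pro-B library for the class II region, with genes in their order along chromosome 17 (not to scale), members in bold and a line joining the 2 values of a gene. The axis is logarithmic above 0.1 FPKM. *Psmb9*, *Tap1* and *Psmb8* have nearly equal points, *Tap2* beside them and the class II genes *H2-DMb1* and *H2-Ob* have longer lines, and *Btnl2* is at 0 in both libraries.

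The genes that prepare peptides and trim Cd74 were split. Of 11 listed, 10 met the minimum, and 5 were lower in the pro-B library, 0 higher and 5 within 2-fold, with a median log2 ratio of -1.22. Over all genes that met it, 19.1% were lower and 12.2% higher, with a median of -0.14. These shares stand beside the counts of each list that follows. *Ctss*, the main protease of the last steps of Cd74 trimming in B cells and dendritic cells, had 51.4 FPKM in the pre-pro-B library and 5.48 in the pro-B library. *Ctsl*, which serves that step in thymic epithelium, had 58.2 and 4.39, and its intervals were apart, at 11.7 to 104 and 0.0200 to 9.24. *Lgmn*, an asparaginyl endopeptidase, had 6.67 and 0.733. *Ctsd*, an aspartyl protease, had 112 and 28.9. *Cst7*, an inhibitor of cysteine cathepsins, had 70.0 and 5.13, so that this inhibitor was lower along with the proteases. The intervals of *Ctss*, *Lgmn*, *Ctsd* and *Cst7* overlapped between the libraries. The 5 within 2-fold, *Ctsb*, *Ctsz*, *Ifi30*, *Sppl2a* and *Cst3*, had log2 ratios from -0.53 to 0.32, and *Ctsh* was under the minimum.

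Among genes of class II turnover, *Marchf8*, a ubiquitin ligase of surface receptors, was the 1 of 3 that met the minimum, and it was lower in the pro-B library, with 7.16 and 1.30 FPKM. *Marchf1*, the ligase that marks class II for degradation, had 0.923 and 0.0135, and *Cd83*, which opposes it, had 0.960 in the pre-pro-B library and was listed at 0 in the pro-B library. Of 6 costimulation genes 3 met the minimum. *Cd86*, a ligand of Cd28, had 8.88 [0.233 to 20.2] and 0.0307 [0 to 0.124], with intervals apart. *Icosl*, the ligand of Icos, was also lower, with 1.46 and 0.0986. *Cd274*, which encodes the inhibitory ligand PD-L1, was higher in the pro-B library, with 1.64 and 5.68. The other 3, *Cd80*, *Cd40* and *Pdcd1lg2*, were under 1 in the pre-pro-B library and listed at 0 in the pro-B library. The intervals of *Marchf8*, *Icosl* and *Cd274* overlapped between the libraries.

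Cd74 also acts at the cell surface as the receptor for Mif, together with Cd44 and chemokine receptors. Of these 4 partners, *Cd44* was lower in the pro-B library, with 112 and 29.3 FPKM, and so was *Cxcr2*, with 1.89 and 0.134. *Cxcr4*, the receptor for the marrow chemokine Cxcl12, was higher, with 134 and 382. The intervals of *Cd44*, *Cxcr2* and *Cxcr4* overlapped between the libraries. *Mif* lay within 2-fold on the log2(FPKM + 1) scale, with 68.7 and 133. It passed 2-fold when the libraries were scaled to each other by the median ratio.

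The factors that bind class II promoters were not lower as a group. Of the 7 genes of the Rfx complex, NF-Y and Creb1, 0 were lower in the pro-B library, 1 was higher and 6 were within 2-fold, with a median log2 ratio of 0.24. The higher gene was *Nfyb*, a DNA-binding subunit of NF-Y, with 43.5 [9.72 to 77.1] and 126 [29.8 to 222], and its intervals overlapped. *Rfx5*, *Rfxap*, *Rfxank*, *Nfya*, *Nfyc* and *Creb1* had log2 ratios from -0.72 to 0.72. Each was above 3 FPKM in both libraries, while *Ciita* was under 1 in both.

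The 14 inducers and repressors of *Ciita* reported here went in both directions, with 5 higher in the pro-B library, 3 lower and 6 within 2-fold, and a median log2 ratio of 0.46. *Prdm1*, a repressor of *Ciita* in plasma cells, had 0.0190 and 1.01 FPKM and a log2 ratio of 0.98, just inside 2-fold. With a pseudocount of 0.1, without a pseudocount and with median-ratio scaling, 6 were higher. The lower genes were *Spi1*, which encodes PU.1, a factor of myeloid and early lymphoid cells, with 19.1 and 3.34 FPKM, *Irf8*, a partner of PU.1, with 66.9 and 27.0, and *Irf1*, a factor induced by interferon gamma, with 30.0 and 9.54. The higher genes included *Pax5*, the factor of B lineage commitment, with 1.13 [0 to 3.47] and 239 [15.5 to 495], and *Foxo1*, a forkhead factor needed at the same stage, with 1.78 [0.00712 to 3.59] and 53.3 [12.5 to 94.1]. The intervals of both were apart. *Irf4*, the close relative of *Irf8*, had 9.90 [1.08 to 18.8] and 272 [8.54 to 536], which overlapped. *Ezh2*, the methyltransferase of Polycomb repression, had 37.0 and 277, and *Bcl6*, a transcriptional repressor of germinal center B cells, had 7.13 and 16.7. The transcript intervals of *Spi1*, *Irf8*, *Irf1*, *Ezh2* and *Bcl6* overlapped between the libraries.

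**Figure D4:**
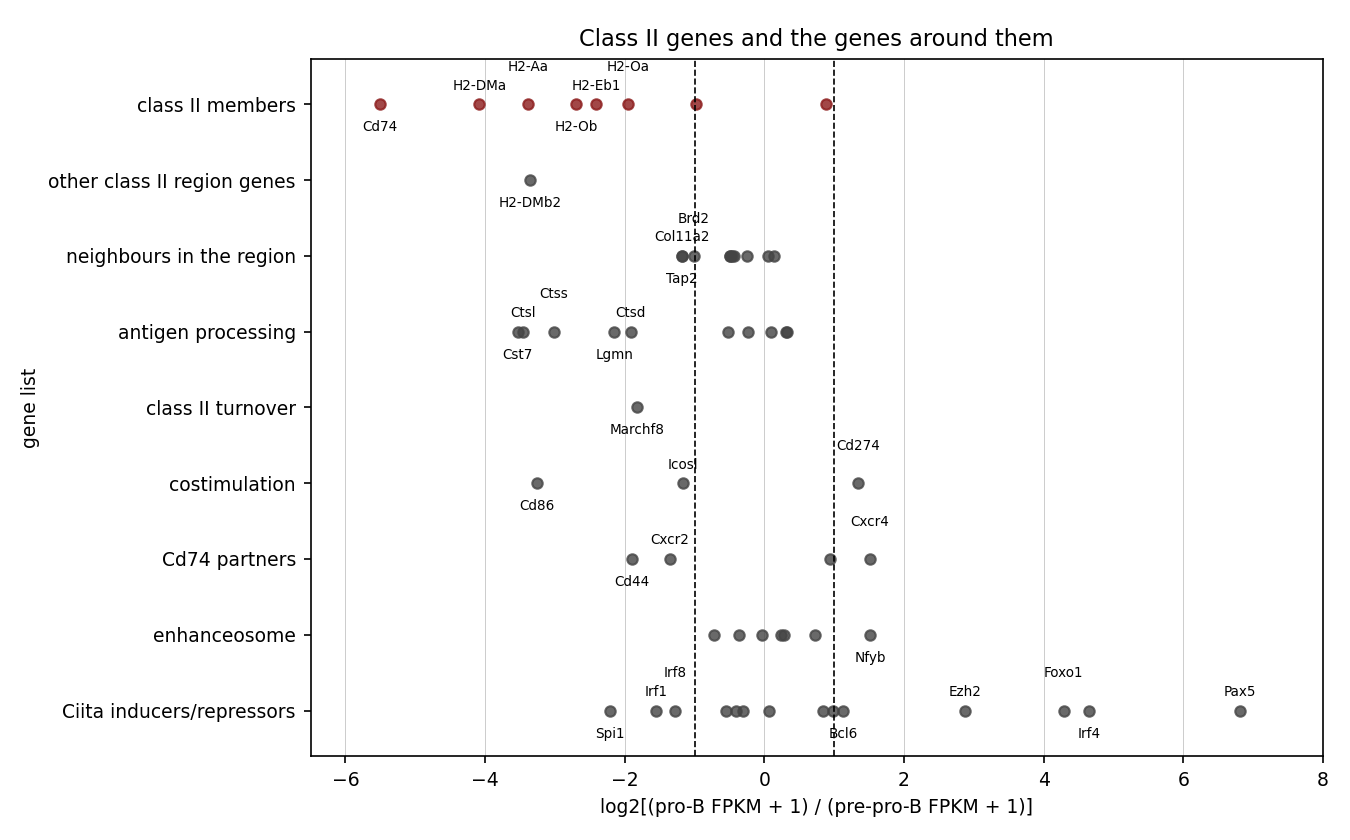
Each point is 1 gene that met FPKM of 1 or more in either library, placed by its log2 ratio of FPKM, pro-B over pre-pro-B (pseudocount 1, 1 library per cell type) and set in rows by gene list. Dashed lines mark 2-fold and names are given for genes past it. The class II members and the antigen processing genes reach to the left, 6 of the 7 enhanceosome genes, those that bind class II promoters, lie within 2-fold and *Nfyb* lies past it, and the inducers and repressors of *Ciita* lie on both sides.

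The markers of dendritic cells, macrophages, T cells and progenitors that met the minimum were lower in the pro-B library. Those of the B lineage and of mature B cells were higher, and the stromal markers were split. Most of the lower markers met the minimum through the pre-pro-B library alone, so their direction was set by that rule. The same holds, through the pro-B library, for the mature B cell markers *Cr2* and *Cd22*. The cell type labels were first set against their own markers. The 8 B lineage markers summed to 8.84 FPKM in the pre-pro-B library and 2924 in the pro-B library, with 8 of 8 higher, and the progenitor markers *Cd34*, *Kit* and *Flt3* summed to 944 and 2.82, with 3 of 3 lower. Of 4 mature B cell markers, *Ms4a1*, which encodes CD20, was listed at 0 in both libraries, and the 4 summed to 0.758 and 41.3. The 8 dendritic cell markers summed to 76.5 in the pre-pro-B library and 5.44 in the pro-B library, and all 3 that met the minimum were lower, namely *Siglech* with 54.3 and 0.236, *Itgax* with 8.07 and 0.294, and *Ccr7* with 13.1 and 4.80. The defining markers of conventional dendritic cells were low in the pre-pro-B library, with *Zbtb46* at 0.165, *Batf3* at 0.818 and *Xcr1* at 0.0439, and *Clec9a* and *Cd209a* listed at 0. The 7 macrophage and monocyte markers matched summed to 37.3 and 6.56, and the 3 that met the minimum were lower. These were *Adgre1* with 11.7 and 0.111, *Itgam* with 19.7 and 6.40, and *Lyz2* with 5.39 and a listed 0. Of the other markers, *Csf1r* was at 0.170 in the pre-pro-B library, *Cd14* at 0.0299 and *Fcgr1* at 0. The 5 T cell markers summed to 76.7 and 3.13. In the pre-pro-B library nearly all of this came from *Cd3g* at 36.8 and *Lck* at 38.0, while *Cd3e* was at 0.239 and *Cd3d* at 0.533. The 8 stromal markers summed to 18.0 and 8.68, of which *Pdgfrb* gave 15.9 and 0.377. Of the 4 stromal markers that met the minimum, *Col1a2* with 0.707 and 2.82 and *Cxcl12* with 0.618 and 2.92 were higher in the pro-B library, *Pdgfrb* was lower and *Col3a1* was within 2-fold with 0.242 and 1.13. Their median log2 ratio was 0.97. The part of such cells in the class II values was not tested. In bulk RNA, fewer cells of a type and less RNA per cell cannot be told apart.

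The deleted genes were not at 0 in their own libraries. *Ebf1* had 64.0 FPKM [2.78 to 149] in the *Ebf1* -/- library and 273 [8.50 to 729] in the *Rag2* -/- library. *Rag2* had 22.9 [1.75 to 44.3] in the *Rag2* -/- library and 34.5 [2.88 to 66.7] in the *Ebf1* -/- library. An FPKM over a whole transcript does not show which exons the reads came from, so these values are no check of the genotypes.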

How the data were processed

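Per the labels, rRNA-depleted total RNA was made into strand-specific libraries and sequenced to about 90000000 single-end 97 nt reads per sample. The authors trimmed the reads, aligned them to mm9 and estimated FPKM for RefSeq transcripts, and the deposited FPKM were used as they stand. The submitters' processing notes name TopHat 1.5 and Cuffdiff 2.1.1. The study's methods give multi-read and bias correction and no scaling between libraries. A further deposited table holds the authors' fold changes, p-values and q-values, and neither these nor its 2 per-sample columns were used.

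Protein-coding transcripts (NM_ accessions) were named through RefSeq, 26551 of 26968, and FPKM were summed per gene. Loci are on mm9 and 1-based, as converted from the table. Ratios used a pseudocount of 1, a minimum FPKM of 1 in at least 1 library and a 2-fold limit, with no test, since each cell type had 1 library. Reads per transcript were approximated from FPKM, length and 90000000 reads. All member genes were to be named whatever their values, and of the lists any gene past 2-fold, the others mostly by range. The members and lists were chosen with earlier results of these data known. Of the listed inducers and repressors of *Ciita*, 1 is not reported here and was left out of the list's counts. Counting and motif searches were tested on simulated data. Alternatives varied the pseudocount, the minimum, the scaling and the transcript used. Python 3.11.15, numpy 2.4.6, pandas 2.3.3 and matplotlib 3.10.9 were used.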

Additional observations from a re-analysis of the deposited data

How the results depend on the processing

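Of 43 values of single member genes under the alternatives, 36 stayed on the same side of 2-fold, 7 crossed it and 0 changed sign. With a pseudocount of 0.1, 7 members were lower in pro-B cells and 1, *H2-Ab1* at a log2 ratio of 1.01, was higher, and *H2-DMb1* was at -2.15 and *Ciita* at -1.29. Without a pseudocount, over genes above 0 in both libraries, 6 members were lower and 1 was higher, with *H2-Ab1* at 1.02, *H2-DMb1* at -2.54 and *Ciita* at -1.94. Scaling to TPM put *H2-DMb1* at -1.01 and so 7 members lower. Scaling by the median ratio moved the median log2 ratio of all genes from -0.14 to -0.03 and left 6 members lower and 0 higher. Beside these counts, 22.1% of all genes were lower and 14.2% higher with a pseudocount of 0.1, and 22.1% and 17.2% without one. The shares were 20.7% and 11.3% with TPM scaling, and 17.3% and 13.7% with median-ratio scaling. With an FPKM of at least 1 required in both libraries, 3 members remained, of which 2 were lower, beside 11.3% of all genes. This minimum removes the genes that were low in pro-B cells by its construction. With no minimum, 9.94% of all genes were lower and 6.34% higher. Counting only transcripts above 0 in both libraries, chosen after seeing the data, left 2 members with intervals apart. No paired analysis was possible because each cell type had 1 library, and for the same reason no library could be left out. FPKM carry no counts, so what depth limits was judged only from approximate reads. Cuffdiff's intervals do not measure the spread between cultures.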
